A study of Mus musculus with 2 samples.

Results

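The clustered protocadherin genes are the protein-coding genes on mouse chromosome 18 whose symbols begin with Pcdha, Pcdhb or Pcdhg. The RefSeq annotation of GRCm38.p6 (the mm10 assembly) places 57 of them between 36930285 and 37841873: 14 alpha, 22 beta and 21 gamma genes, of 20665 protein-coding genes on the chromosomes analysed. Pcdhgb8 is annotated as a transcribed pseudogene and was left out, as were read-through models named Gm37013, Gm38666 and Gm38667 that run from the alpha into the gamma cluster. The deposited table gives whole numbers, treated here as counts, in windows of 50 kb for each parental allele. Of its 43941 windows, 16 overlap the 57 genes: 6 in the alpha, 6 in the beta and 4 in the gamma cluster. No window is shared between clusters. The flanks run from the window that starts at 35500001 to the window that starts at 39450001; the windows there that hold no member are 28 in the left flank, 33 in the right flank and 3 between clusters.

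Counts came from ATAC-seq, a method that uses a transposase to insert sequencing adapters into accessible chromatin, in F121-6, a female mouse embryonic stem cell line with 1 chromosome set from 129 and 1 from castaneus (CAS) mice. The cells grew with LIF on embryonic fibroblast feeders stopped with mitomycin C. There were 2 replicates of this single group and no treatment, so every comparison is between the 2 alleles of the same libraries. The labels do not say whether replicates were separate cultures, so p-values describe these libraries alone: they rest on the spread between them, which may be technical, and on the counting error that the model assumes.

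Clustered protocadherins are cadherin-family adhesion proteins that neurons combine on their surface, so that a cell can tell its own branches from those of its neighbours. In the alpha and gamma clusters each gene has its own large first exon and promoter, and that exon is spliced to constant exons shared by the whole cluster. The beta genes are each a single exon with no constant part. In neurons the alternate genes are chosen at random and separately on the maternal and paternal chromosome, with CTCF and cohesin looping a promoter to an enhancer. The C-type genes (Pcdhac1, Pcdhac2, Pcdhgc3, Pcdhgc4 and Pcdhgc5) are largely exempt from that choice. In embryonic stem cells the clusters are largely silent.

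Replicate 1 held 44026 counts for 129 and 46128 for CAS, and replicate 2 held 59812 and 59995. A window averaged 2.05 counts over both alleles in replicate 1 and 2.73 in replicate 2, with values from 0 to 18 per allele. Between the alleles of a replicate the counts varied less than independent reads would (at windows of at least 4 counts the variance was 0.327 and 0.468 times the binomial value), so they are small counts of an unstated unit whose read depth is unknown. Stem cell loci were the most open of the marker lists: 7 pluripotency genes averaged 10.3 and 13.1 counts per window in replicates 1 and 2, against 1.83 and 1.83 for 10 fibroblast genes, of which Postn was at 0, and 2.59 and 3.59 for 7 neuronal genes. Of these genes, 2 pluripotency, 3 fibroblast and 1 neuronal gene were higher on 129 in both replicates, and 1, 1 and 2 were higher on CAS. Over all 17074 protein-coding genes with a count the shares were 14.5% on 129 and 15.5% on CAS. The pluripotency gene Nanog had 9 on 129 and 7 on CAS in replicate 1, then 11 and 8 in replicate 2. Of the neuronal genes, Syt1, a synaptic calcium sensor gene, had 21 and 16, then 37 and 25, Map2 had 5 and 7, then 10 and 15, and Rbfox3 had 4 and 7, then 1 and 7. The genotype of the feeder cells is not given in the sources used here, and their part in any allelic value was not tested.

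The gamma cluster was the most open of the clusters, and the alpha and beta clusters were near the average of the genome. The 4 gamma windows averaged 7.75 counts over both alleles in each replicate. The alpha windows averaged 2.67 in replicate 1 and 3.00 in replicate 2, and the beta windows 2.00 and 2.50. In replicate 1 the gamma windows held 5 to 11 counts, above all alpha windows (0 to 4) and beta windows (0 to 3). In replicate 2 the gamma windows held 5 to 9 and the beta windows 1 to 4, and the highest alpha window, with 5, equalled the lowest gamma window. The left flank averaged 3.68 in replicate 1 and 2.75 in replicate 2, and the right flank 3.24 and 3.27. Beta was below both flanks in each replicate. Alpha was below both in replicate 1 and between them in replicate 2. Some flank windows were as open as gamma windows. That of Spry4 and Arhgap26 (38600001 to 38650000) held 13 and 14, and that from 38350001 to 38400000 held 8 and 10. The levels are a description of 2 libraries and were not tested.

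**Figure D1:**
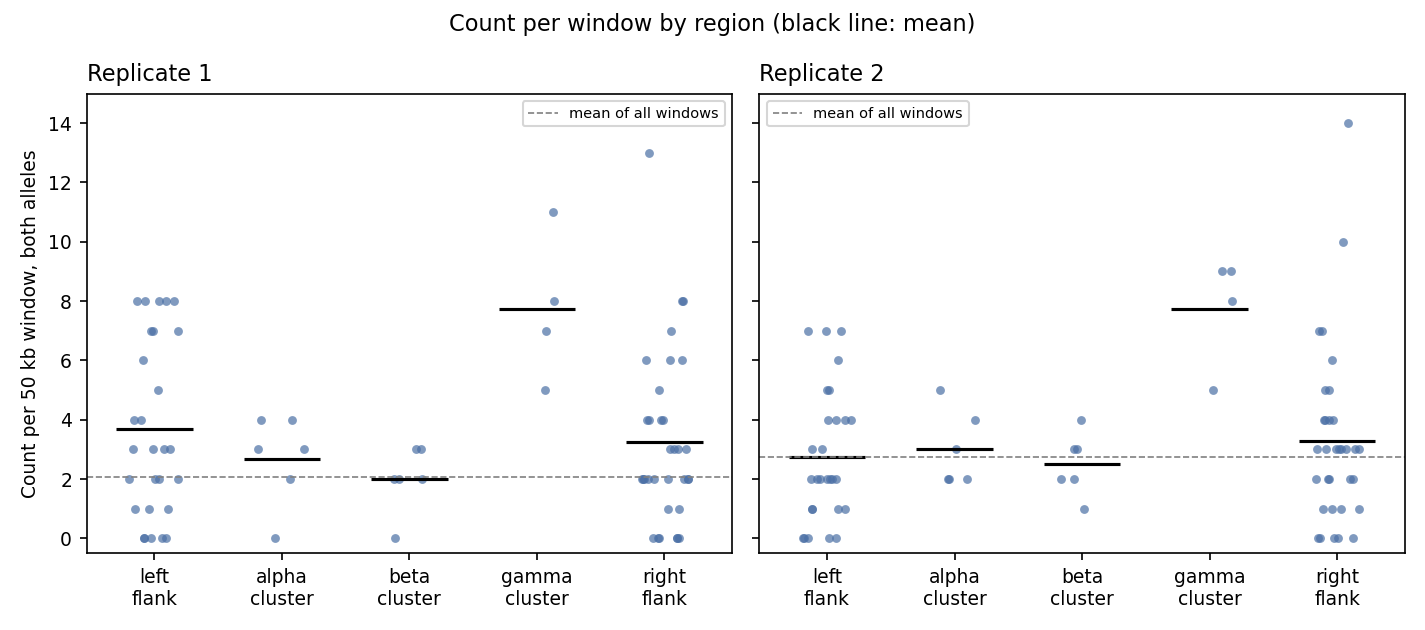
Count per 50 kb window over both alleles (vertical axis) for each window of the left flank, the 3 clusters and the right flank, with replicate 1 on the left and replicate 2 on the right. Points are windows, spread sideways for visibility, black lines are means and the dashed line is the mean of all windows of the table; the gamma windows average 7.75 in each replicate, while the alpha and beta means lie between 2.00 and 3.00.

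Over all windows replicate 2 held 1.33 times the counts of replicate 1. The ratio was 1.12 in the alpha, 1.25 in the beta and 1.00 in the gamma cluster, and 0.748 in the left and 1.01 in the right flank. These ratios rest on small counts and were not tested. None of the 16 protocadherin windows was at 0 in all 4 columns, against 7 of 61 flank windows and 9524 of the 43941 windows overall.

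The levels were also set beside the density of gene starts, without a test. For the members the start is the lower coordinate of the gene. Windows with 5 or more protein-coding gene starts on other chromosomes (104 windows) averaged 5.95 counts in replicate 1 and 5.13 in replicate 2. The 3 beta windows this dense, with the starts of Pcdhb3 to Pcdhb7, Pcdhb9 to Pcdhb14 and Pcdhb15 to Pcdhb19, averaged 2.67 and 3.00. The alpha window this dense, with the starts of Pcdha4 to Pcdha9, held 4 and 5, and the 2 gamma windows this dense averaged 6.5 and 7.0. Windows without a gene start averaged 1.54 and 2.38, so the dense beta windows lay between windows without starts and other dense windows in both replicates.

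Summed over all its windows, the alpha cluster was even between alleles in replicate 1 and had more CAS counts in replicate 2. It spans 36930285 to 37188897, and its 14 genes are 43986 to 257373 bp long, because all end at the shared constant exons. Its 6 windows held 8 counts on each allele in replicate 1, and 7 on 129 and 11 on CAS in replicate 2. The 129 share, which is the 129 count over both alleles, was 50.0% (exact Clopper-Pearson 95% interval 24.7 to 75.3%) and 38.9% (17.3 to 64.3%), or 44.4% ± 7.86 (SD, n = 2). The 4 windows wholly inside the cluster held 4 counts on 129 and 6 on CAS in replicate 1, then 3 and 8 in replicate 2. These intervals, here and below, cover counting error only.

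Along the alpha cluster the allelic difference changed sign, and neither sign passed a test. The outermost window (36900001 to 36950000), with the starts of Pcdha1, Pcdha2 and Pcdha3, showed 2 counts for 129 against 1 for CAS in each replicate. Its unadjusted edgeR p was 0.408 (edgeR adjusted p = 0.999) in the fit of single windows described below. The next window (36950001 to 37000000) holds the starts of Pcdha4, Pcdha5, Pcdha6, Pcdha7, Pcdha8 and Pcdha9, and had 1 on 129 and 3 on CAS in replicate 1, then 1 and 4 in replicate 2. These adjacent windows were the lone alpha windows with the same direction in both replicates, and their directions were opposite.

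The remaining alpha windows held small or equal counts. The window with the starts of Pcdha10, Pcdha11 and Pcdha12 (37000001 to 37050000) was at 0 in 3 of the 4 columns and had 2 counts on CAS in replicate 2. The C-type genes lie nearest the constant exons: the start window of Pcdhac1 (37050001 to 37100000) had 2 and 2, then 1 and 1, and that of Pcdhac2 (37100001 to 37150000) had 1 and 1 in each replicate. The window of the constant exons (37150001 to 37200000) had 2 on 129 and 1 on CAS, then 2 and 2. At both C-type starts the alleles were equal in both replicates.

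The beta cluster had the most uneven alleles of the clusters in replicate 1 and the most even in replicate 2. Its 22 genes are 2340 to 5271 bp long and lie between 37264998 and 37521419. Summed over 6 windows, it had 2 counts on 129 and 10 on CAS in replicate 1, a 129 share of 16.7% (2.09 to 48.4%). In replicate 2 it had 7 and 8, a share of 46.7% (21.3 to 73.4%), and the mean was 31.7% ± 21.2 (SD, n = 2). The low mean share thus rests on replicate 1.

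Within the beta cluster CAS was higher in both replicates in 2 windows. The window of Pcdhb3, Pcdhb4, Pcdhb5, Pcdhb6 and Pcdhb7 (37300001 to 37350000) had 0 counts on 129 and 3 on CAS in replicate 1, then 1 and 2 in replicate 2. The window of Pcdhb9 to Pcdhb13 and the start of Pcdhb14 (37400001 to 37450000) had 0 and 2, then 1 and 3. Both gave CAS the higher value by 1 to 3 counts.

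The other beta windows showed no shared direction. The window of Pcdhb15, Pcdhb16, Pcdhb17, Pcdhb18 and the start of Pcdhb19 (37450001 to 37500000) had 0 on 129 and 3 on CAS in replicate 1 and 2 on 129 and 0 on CAS in replicate 2, so the replicates were opposite. Pcdhb1, which stands apart at the edge of the cluster, and Pcdhb2 share a window (37250001 to 37300000) with 1 and 1, then 2 and 1. Pcdhb8 (37350001 to 37400000) had 1 and 1 in each replicate. The window of Pcdhb20, Pcdhb21 and Pcdhb22 (37500001 to 37550000) was the least open of the 16, with a lone CAS count in replicate 2.

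The gamma cluster had the same sums in both replicates. Between 37661775 and 37841873, its 4 windows held 13 counts on 129 and 18 on CAS in replicate 1 and again 13 and 18 in replicate 2. The 129 share was 41.9% (24.5 to 60.9%) each time, with an SD of 0 (n = 2). The equal sums came from unequal windows.

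At the start of the cluster, the window of Pcdhga1, Pcdhga2, Pcdhga3, Pcdhgb1, Pcdhga4, Pcdhgb2 and Pcdhga5 (37650001 to 37700000) had 3 on 129 and 5 on CAS, then 4 and 5. At its end, the window of the C-type genes Pcdhgc3, Pcdhgc4 and Pcdhgc5 and of the constant exons (37800001 to 37850000) had 5 and 6, then 3 and 5. An end of the neighbouring gene Diaph1 also lies in this window. Pcdhgc4 is known for its part in the survival of neurons. This C-type window was the most open of the 16, with a sum over the 4 columns above that of 97.4% of all windows. CAS was higher in both replicates in both of these windows.

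The 2 inner gamma windows were opposite between replicates. The window with the starts of Pcdhga6, Pcdhga7, Pcdhga8, Pcdhga9 and Pcdhga10 and of Pcdhgb4, Pcdhgb5 and Pcdhgb6 (37700001 to 37750000) had 3 on 129 and 2 on CAS in replicate 1, then 1 and 4 in replicate 2. The window with the starts of Pcdhgb7, Pcdhga11 and Pcdhga12 (37750001 to 37800000) had 2 and 5, then 5 and 4.

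**Figure D2:**
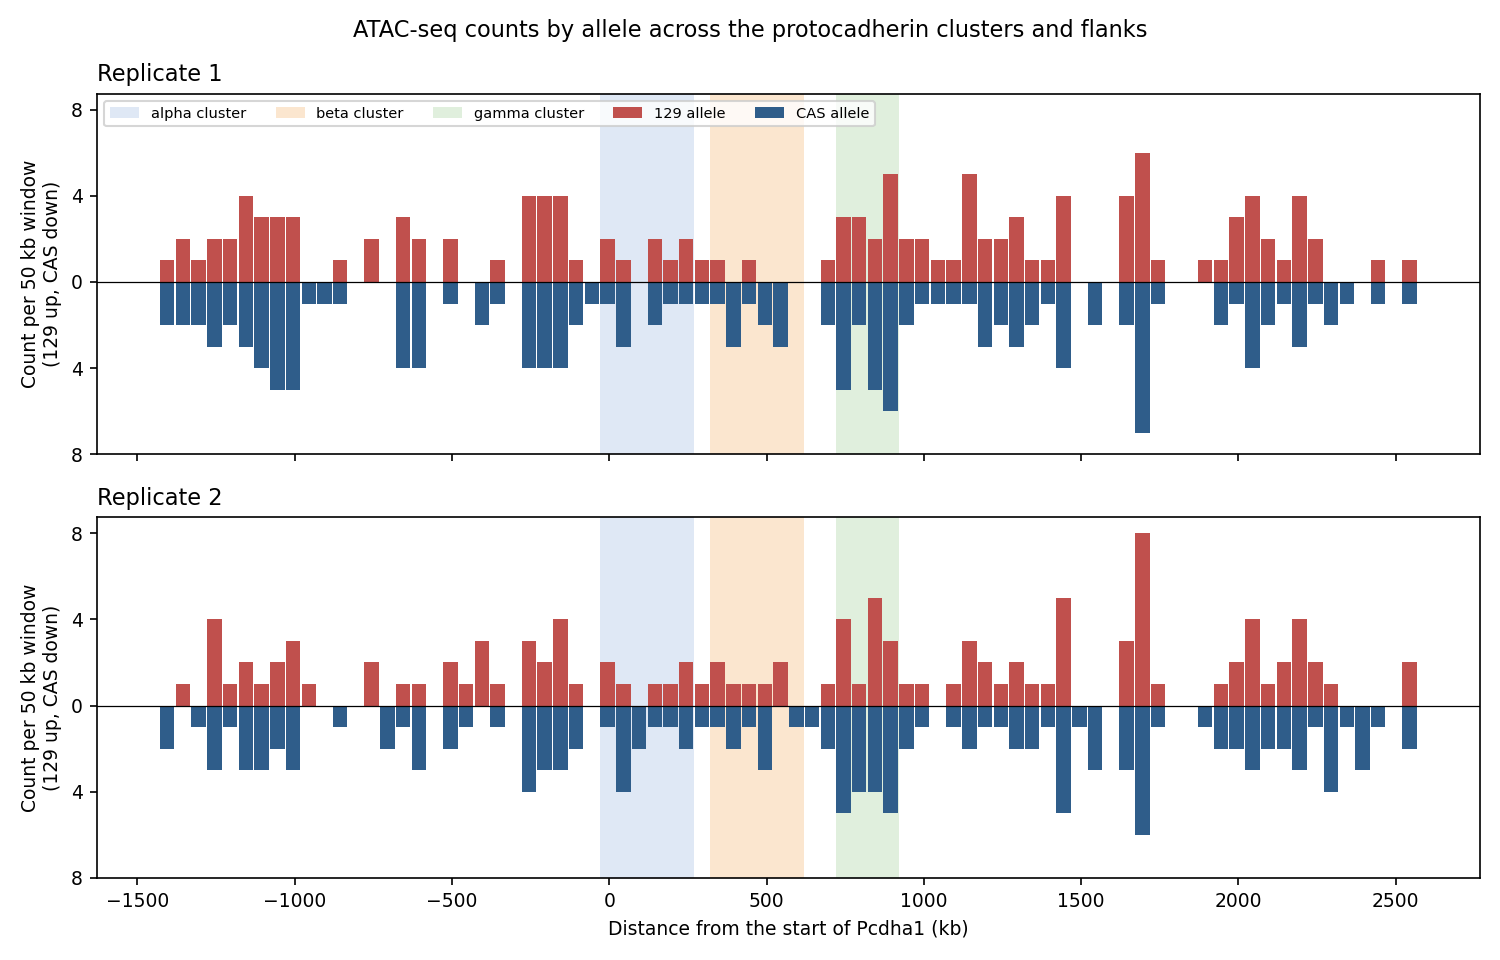
Counts per 50 kb window on the 129 allele (upward bars) and the CAS allele (downward bars) in replicate 1 (top) and replicate 2 (bottom), against distance from the start of Pcdha1 in kb, with the alpha, beta and gamma clusters shaded. The gamma cluster stands above the alpha and beta clusters on both alleles, and most alpha and beta windows hold 0 to 3 counts per allele.

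Counted by window, 5 of 16 protocadherin windows were higher on CAS in both replicates and 1 was higher on 129. The other windows comprised 3 with opposite directions and 7 with equal counts in a replicate. Of 34417 windows with a count, 12.6% were higher on CAS in both replicates and 11.4% higher on 129, and of 1320 such windows on chromosome 18 the shares were 19.0% and 7.20%. Both references include the 16 protocadherin windows. After scaling the columns to equal totals, 5 windows were higher on CAS and 6 on 129, because windows with equal counts then fall on the 129 side. With replicate 2 alone 8 windows were higher on CAS. At a difference of at least 2 counts in each replicate the number was 2. These were the windows of Pcdha4 to Pcdha9 and of Pcdhb9 to Pcdhb14. Shares over all windows were not computed for the scaled, single-replicate and 2-count rules, so those numbers have no matching reference.

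Counted by gene, the same data look more uniform, since genes share windows. Summed over all windows that a gene overlaps, 37 of 57 genes were higher on CAS in both replicates and 0 were higher on 129. The share over all 17074 protein-coding genes with a count was 15.5% on CAS and 14.5% on 129, and over 490 such genes on chromosome 18 it was 34.5% on CAS. Both references include the 57 members, which give 37 of the 169 chromosome 18 genes higher on CAS. The 57 genes have 17 distinct sets of windows, and the 37 genes have 7. In the gamma cluster all 21 genes were among the 37, and all 21 overlap the last window, that of the C-type genes. In the alpha cluster 6 of 14 genes were (Pcdha4 to Pcdha9), which share 1 set of windows with 6 counts on 129 and 7 on CAS in replicate 1, then 5 and 10 in replicate 2. In the beta cluster 10 of 22 were, in 2 windows.

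By the window of the gene start alone, 27 genes were higher on CAS and 3 on 129 in both replicates. By the window of the lower coordinate, 12.3% of 16072 protein-coding genes with a count there were higher on CAS and 11.9% on 129, and of 454 such genes on chromosome 18 the shares were 27.1% and 4.41%. These references also include the members, which give 27 of the 123 chromosome 18 genes higher on CAS and 3 of the 20 higher on 129. The 27 comprised 6 alpha genes (Pcdha4 to Pcdha9), 11 beta genes (Pcdhb3 to Pcdhb7 and Pcdhb9 to Pcdhb14) and 10 gamma genes (the 7 from Pcdhga1 to Pcdhga5 and the 3 C-type genes). The 3 were Pcdha1, Pcdha2 and Pcdha3. The median log2 ratio of 129 to CAS counts per gene, over both replicates and with 0.5 added to each sum, was -0.33 for alpha, -1.58 for beta and -0.44 for gamma genes. The beta median is the value of Pcdhb20, Pcdhb21 and Pcdhb22, whose window holds a lone CAS count, so it rests on that count and the 0.5 added. The median was 0 for all protein-coding genes and -0.24 for those of chromosome 18, the members included.

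**Figure D3:**
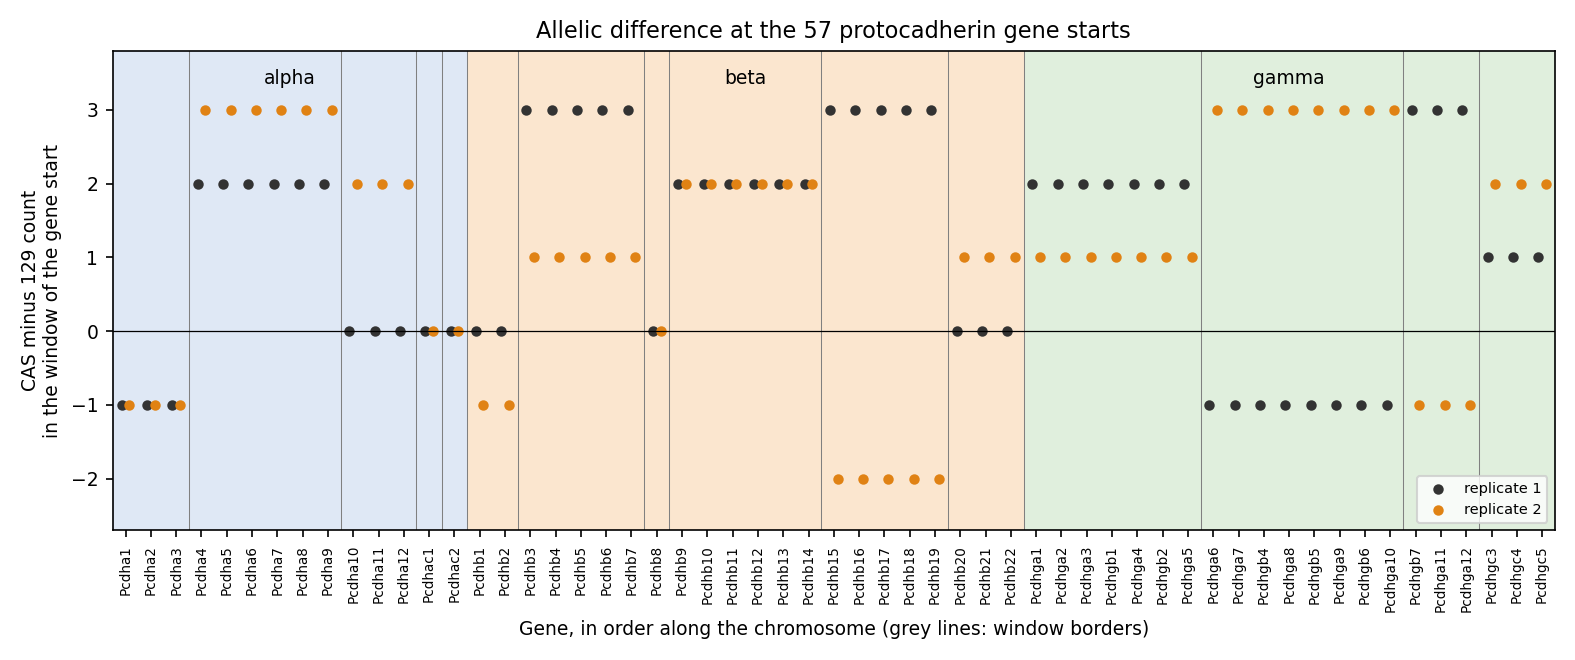
CAS minus 129 count in the window that holds the start of each of the 57 genes (vertical axis), in order along the chromosome, for replicates 1 and 2; grey lines mark window borders and shading the clusters. Genes between 2 grey lines share the same values, Pcdha1 to Pcdha3 are the lone genes below 0 in both replicates, and Pcdhb15 to Pcdhb19 lie at 3 in replicate 1 and at -2 in replicate 2.

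None of the allelic differences passed a test. In edgeR's quasi-likelihood fit, in which each cluster was 1 feature and the rest of the genome was summed to 250 kb bins (9082 features), the log2 difference of 129 from CAS was -0.29 for alpha (SE 0.49), -0.93 for beta (SE 0.57) and -0.42 for gamma (SE 0.37). The SEs are those implied by the p-values. The unadjusted edgeR p-values were 0.555, 0.101 and 0.253, and each adjusted p was 0.987. The 95% intervals of -1.25 to 0.67, -2.05 to 0.18 and -1.14 to 0.30 all include 0, and each also includes a 2-fold higher CAS level, which the fit therefore does not exclude. No feature passed in that edgeR fit (0 called, 0.00%), and 242 had an unadjusted p under 0.05. DESeq2's Wald test likewise called 0, and 8 had an unadjusted p under 0.05. Limma on centred square roots called 0, and 472 had an unadjusted p under 0.05. The counts varied less between alleles than independent counts would. The edgeR and DESeq2 p-values may therefore be too large and the edgeR intervals too wide. Failing these tests does not show that the alleles are alike.

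The alpha and beta values depended on the library, and the alpha value on the choice of windows: from windows with a gene start alone it was -0.48 (edgeR adjusted p = 0.987). With replicate 1 alone the log2 difference was 0.09 for alpha and -2.17 for beta, and with replicate 2 alone it was -0.63 and -0.17. The gamma value was -0.38 and -0.45. CAS was higher in both replicates in the beta and gamma sums, as in 23.5% of the 9082 features (19.1% were higher on 129) and 39.5% of the 347 bins of 250 kb on chromosome 18.

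Single windows also failed to pass. In the edgeR fit over 34417 windows of 50 kb the adjusted p was 0.999 in all 16 protocadherin windows, and no window of the table passed (0 called, 0.00%); 910 had an unadjusted p under 0.05. The smallest unadjusted edgeR p-values were 0.0868 for the window of Pcdha4 to Pcdha9, 0.0884 for that of Pcdhb9 to Pcdhb14 and 0.0901 for that of Pcdhb3 to Pcdhb7. These depended on the model: with the replicate as a block the edgeR p-values were 0.0868, 0.204 and 0.282. Unadjusted limma p-values on centred square roots were 0.0106, 0.0101 and 0.0101. Limma on centred square roots called 78 windows of the table and none of the 16, with an adjusted limma p of 0.352 in the same 3 windows.

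The clusters were set beside the rest of their chromosome. Over all 3 clusters the 129 share was 39.0% (26.5 to 52.6%) in replicate 1 and 42.2% (29.9 to 55.2%) in replicate 2. It was 43.7% (33.9 to 53.8%) and 46.8% (35.3 to 58.5%) in the left flank and 51.4% (41.5 to 61.2%) and 45.4% (35.8 to 55.2%) in the right flank. The rest of chromosome 18 had 44.5% (42.7 to 46.2%) and 44.8% (43.3 to 46.3%). The interval of every cluster in each replicate included the share of the rest of the chromosome. These intervals assume binomial counts and are wider than the variance of the counts warrants, so inclusion does not show that the shares are alike. The difference between the clusters and the chromosome was not tested.

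**Figure D4:**
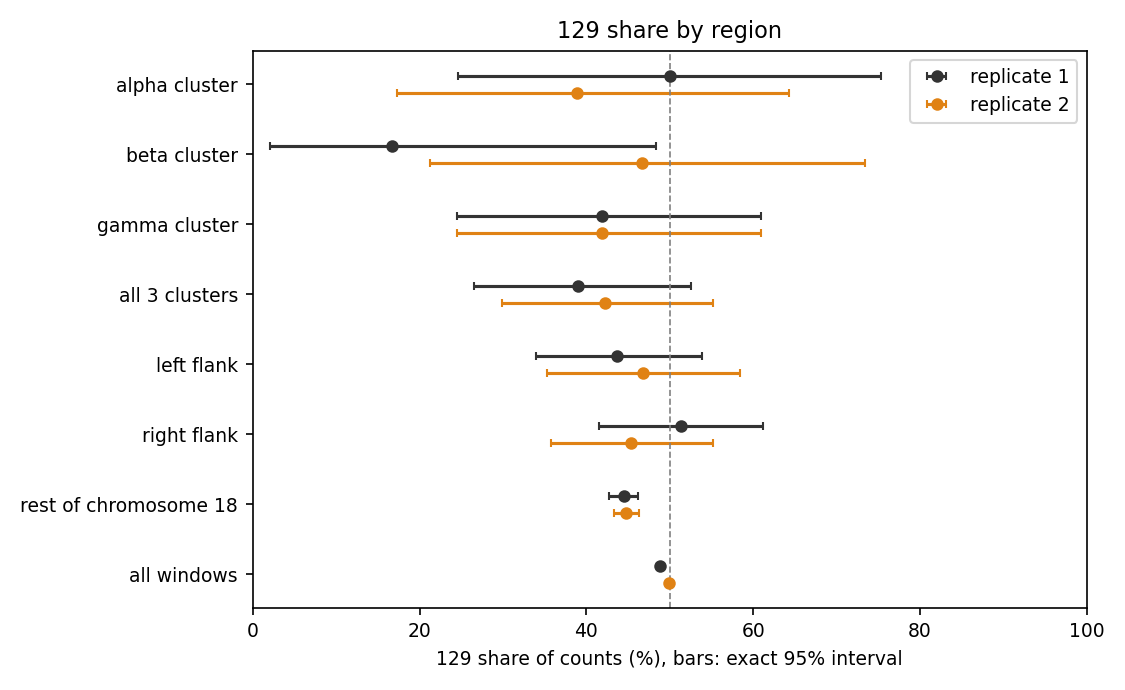
129 share of the counts in percent (horizontal axis) for each cluster, all 3 clusters, the flanks, the rest of chromosome 18 and all windows, in replicate 1 (black) and replicate 2 (orange), with exact 95% intervals for counting error. The dashed line marks equal alleles; the cluster intervals are wide and each includes the 44.5% or 44.8% of the rest of chromosome 18.

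Neighbouring genes gave a local reference. Between the beta and gamma clusters, the window of Slc25a2, a mitochondrial ornithine carrier gene, and Taf7, a gene of a general transcription factor subunit (37600001 to 37650000), showed 1 for 129 against 2 for CAS in each replicate. The window between the alpha and beta clusters (37200001 to 37250000) had 1 and 1 in each. On the left, the closest gene window, from Ik to Zmat2 (36750001 to 36800000), had 4 and 4, then 4 and 3. On the right, the next window of Diaph1, an actin-nucleating formin gene (37850001 to 37900000), had 2 and 2, then 1 and 2. These neighbours were even or within 1 count.

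Of the 61 flank windows 54 had a count. Of these, 10 (18.5%) were higher on CAS and 4 (7.41%) higher on 129 in both replicates. The shares over chromosome 18 were 19.0% and 7.20%. In 4 flank windows the alleles differed in the same direction by at least 2 counts each time. The share of all windows with such a difference was not computed. A window of Nrg2, a neuregulin gene (36150001 to 36200000), showed 2 counts for 129 against 0 for CAS in each replicate. A window of Ndfip1, an adaptor of ubiquitin ligases (38450001 to 38500000), had 0 on 129 and 2 on CAS, then 0 and 3. The window of Igip and Cystm1 (36300001 to 36350000) had 2 and 4, then 1 and 3, and a window of Arhgap26 (39200001 to 39250000) had 0 and 2, then 1 and 4. The windows of Pcdha4 to Pcdha9 and of Pcdhb9 to Pcdhb14 met the same cut, so a like size of difference follows largely from that choice. By this cut there were 4 of 54 flank windows with a count and 2 of 16 protocadherin windows. The difference between these was not tested.

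The direction of other cadherin genes differed between lists. Over all 17074 protein-coding genes with a count, 15.5% were higher on CAS and 14.5% on 129 in both replicates. Over 490 such genes on chromosome 18, the 57 clustered members among them, the share was 34.5% on CAS. Of 10 nonclustered protocadherins, which lie outside the clusters, 5 were higher on CAS and 1 on 129 in both replicates, with a median log2 ratio of -0.30. Of those higher on CAS, Pcdh10 and Pcdh18 lie on chromosome 3, Pcdh8 and Pcdh20 on chromosome 14 and Pcdh12 on chromosome 18. All of them but Pcdh10 differed by 1 count in at least 1 replicate. The shares over all genes of chromosomes 3 and 14 were not computed. Pcdh10 had 3 on 129 and 5 on CAS, then 6 and 8. Pcdh1 and Pcdh12 lie in the right flank: Pcdh1 had 5 and 5, then 3 and 3, and Pcdh12 had 1 and 2 in each replicate. Of 10 other cadherins on chromosome 18, 8 had a count, 0 were higher on CAS and 2 on 129, and the median was 0. Among them Cdh2, the N-cadherin gene, had 5 and 6, then 9 and 9, and Dsg2, a desmosomal cadherin gene, had 6 and 5 in each replicate.

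Of 13 classical cadherins on other chromosomes, 6 were higher on CAS and 2 on 129, with a median log2 ratio of -0.40. The shares over all protein-coding genes with a count were 15.5% and 14.5%. Of those higher on CAS, Cdh3, Cdh5, Cdh8 and Cdh13 lie on chromosome 8, as does Cdh1. The share over all genes of chromosome 8 was not computed. Cdh1, the E-cadherin gene of stem cells, had 9 on 129 and 7 on CAS, then 8 and 6. Cdh13, which lacks the cytoplasmic domain, had 4 and 11, then 5 and 13, and Cdh8 had 5 and 10, then 13 and 27. Cdh5 had 1 and 3, then 2 and 5, Cdh6 had 7 and 4, then 9 and 5, and Cdh18 had 3 and 5, then 6 and 12. These values were not tested against those of the clusters.

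Genes whose products act on the clusters were split between the alleles. Over all 17074 protein-coding genes with a count, 15.5% were higher on CAS and 14.5% on 129 in both replicates. Of 9 promoter and looping factors, 2 were higher on CAS and 3 on 129, at 2.96 and 3.50 counts per window in replicates 1 and 2. Ctcf, whose protein sits at the promoters and enhancers of the clusters, had 6 on 129 and 7 on CAS, then 4 and 7. Rad21, a cohesin subunit gene, had 5 and 3, then 5 and 2, and Rest, a repressor of neuronal genes, had 8 and 6, then 11 and 6. Of 7 silencing factors, 1 was higher on CAS and 0 on 129, at 3.07 and 3.53 per window. Smchd1, which helps to silence the clusters, had 3 and 4, then 5 and 4, and Dnmt3b, which methylates their promoters in early embryos, had 3 and 3, then 5 and 5. Of 14 binding partners and signalling genes, 3 were higher on CAS and 2 on 129. The numbers leave out listed genes not analysed here.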

How the data were processed

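Allele-resolved ATAC-seq was analysed in 2 replicates of 1 cell line. Per the file headers, the deposited table has 1 column per allele and replicate (0 further per-sample columns). Its rows are 50 kb windows and its values are whole numbers, which were treated as small counts. Bowtie2, SAMtools, bedtools and MACS2 and the build mm10 are named, without roles, in the submitters' processing notes. The unit counted and the assignment to alleles are not stated in the sources at hand, so mapping differences between the alleles cannot be assessed.

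Windows were joined to RefSeq gene positions if any base was shared (1-based). The main tests used edgeR 4.0.16 (R 4.3.3) with TMM, features with at least 1 count, allele as the term and Benjamini-Hochberg adjustment over all features at 0.05. They were also run on simulated independent (Poisson) counts. The deposited counts vary less than that between alleles, so those runs do not show how the tests behave on them. Each library yields both alleles, and the number of the replicate thus pairs its columns (deviations correlated at 0.27 across windows with a count). Alternatives were the replicate block, DESeq2 1.42.0 size factors and Wald test, 1 library size per replicate, a minimum count of 10, 1 Mb bins, start windows, whole windows inside a cluster, limma 3.58.1, and each replicate alone. With 2 replicates an exact permutation test cannot go below p = 0.333 and was not used.

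All members were named, with flank windows and list genes that differed by 2 or more counts in the same direction in both replicates (at most 6 a list). Genes next to the clusters and some list genes were named for their role; the latter were chosen after their values were seen. Members and lists were chosen with earlier results of these data known.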

Additional observations from a re-analysis of the deposited data

How the results depend on the processing

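The log2 differences of the beta and gamma clusters kept their sign in every edgeR and DESeq2 alternative that gave them a value. No edgeR or DESeq2 alternative with a test brought any of the 3 clusters under the adjusted p threshold. Filtering at a minimum count of 10 removed alpha and beta from the fit. Limma values of the single clusters were not recorded. The alpha difference turned to 0.0886 without replicate 2, and ran from 0.0886 to -0.63 over the replicates taken singly (beta -0.17 to -2.17, gamma -0.38 to -0.45). With the replicate as a block the values were -0.29, -0.93 and -0.41 (edgeR adjusted p = 0.991 each), and the block changed no call. Over the edgeR and DESeq2 alternatives with a test, the adjusted p of the clusters ran from 0.984 to 1. Windows wholly inside a cluster gave 129 shares of 33.6% (alpha), 27.7% (beta) and 42.3% (gamma). Called windows numbered 1 with 1 library size per replicate and 78 with limma on centred square roots, none in the clusters. Windows higher on CAS numbered 2 at a difference of 2 or more counts and 7 to 8 with single replicates, without matching shares over all windows. Leaving out a replicate leaves no residual spread, so those values have no test. The small counts limit all statements: the alpha and beta clusters rest on 12 to 18 counts per replicate.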
